A study of Homo sapiens with 12 samples.

Results

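The messenger RNAs of 9 genes of cell-cell junctions were examined in lung adenocarcinoma cells: the p120 catenin gene CTNND1, the cadherin genes CDH1, CDH2 and CDH3, the catenin genes CTNNA1, CTNNB1 and JUP, and the plakophilin genes PKP2 and PKP3. They were chosen by name, and every non-control probe that the array design assigns to one of them was used, which gave 13 probes for 9 of 36337 distinct gene names. CTNND1, CDH2, CTNNA1 and CTNNB1 each had a pair of probes, which are described separately. The cells were A549, PC14 and the cisplatin-resistant PC14CDDP, which descends from PC14. Each line was transfected at 25 nM with 4 oligonucleotides and 1 array was made from each transfection, so 12 arrays were compared. Pre-miR-197 supplies the miRNA and NC, labeled AllStar-NC, is its control, whereas LNA-miR-197, a locked nucleic acid, blocks the miRNA and LNA-NC, labeled LNA-miR-NC, is its control. All 12 cultures received DharmaFECT 1 and none was left untransfected. The lines were not reauthenticated.

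Classical cadherins are transmembrane receptors that bind the same cadherin on a neighboring cell. Their cytoplasmic tails hold p120 catenin near the membrane, which keeps the cadherin from being taken up and degraded, and hold beta-catenin or plakoglobin further along, which joins alpha-catenin and through it the actin cytoskeleton. Plakophilins and plakoglobin also build the desmosome, which anchors intermediate filaments. In epithelia the main classical cadherin is E-cadherin (CDH1), and exchange of E-cadherin for N-cadherin (CDH2) is a known feature of the epithelial-mesenchymal transition. CTNND1 was among the genes that the study took up as candidate targets of miR-197 after selection on these arrays, so that its values here are no independent evidence of a response. The study also tested CTNND1 by quantitative PCR and by a luciferase reporter with its untranslated region. It reported lower reporter activity with pre-miR-197 in A549, and no significant change with the region mutated, and called CTNND1 a direct target.

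The oligonucleotides act through the mature miRNA, whose sequences are shown because the seed, bases 2 to 8 from the 5′ end and written in capitals, sets which transcripts a miRNA can pair with. They are from RefSeq on GRCh38.p14 and lie on the plus strand of chromosome 1, hsa-miR-197-3p at chr1:109598940-109598961 and hsa-miR-197-5p at chr1:109598901-109598923. The arms have different seeds. The labels do not say which arm the precursor or the inhibitor stands for.
hsa-miR-197-3p: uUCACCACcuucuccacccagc
hsa-miR-197-5p: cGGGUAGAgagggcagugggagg

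The probes are 60 bases long, and their positions are those of the array design on hg19. The CTNND1 probes lie on chromosome 11, A_23_P251316 from 57586315 to 57586374 and A_33_P3209716 from 57582867 to 57582926, starting at base 5931 of NM_001331 and at base 3273 of NM_001206885. The first 30 bases of A_33_P3209716 are shown because this probe and the other CTNND1 probe differed after LNA-miR-197.
CTNND1 A_33_P3209716, first 30 bases, chr11:57582867-57582896 on the plus strand of hg19: taacaactattccacaccaaatgagagagg
The CDH1 probe lies at chr16:68869214-68869273, the CDH3 probe at chr16:68732812-68732871, the JUP probe at chr17:39911150-39911209, the PKP2 probe at chr12:32943741-32943800 and the PKP3 probe at chr11:404848-404907. The CDH2 probes lie at chr18:25532081-25532140 and chr18:25530936-25530995, those of CTNNA1 at chr5:138270387-138270446 and chr5:138266534-138266593, and those of CTNNB1 at chr3:41281749-41281808 and chr3:41280687-41280746. Exon and UTR annotation of hg19 was not used here.

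All values below are log2 levels, taken from the processed signal and set against the same array's 75th percentile, so that 0 is the level of that percentile. The levels of different probes are not comparable, since probes differ in brightness. All 13 probes passed the filter of being well above background on at least 3 of 12 arrays, and 11 were well above background on all 12. Per array, 55.8% to 63.1% of probes passed the background criterion, and the number of arrays, not a read depth, limits the precision. Slide 1 held every A549 array and slide 2 the PC14 and PC14CDDP arrays, so A549 and slide cannot be told apart. A transfection also occupied 1 slide column throughout, so column and transfection cannot be told apart either. The epithelial keratins KRT8 and KRT18 were well above background on all 12 arrays, whereas EPCAM was so on 4 A549, 3 PC14 and 0 PC14CDDP arrays. KRT19, also on the epithelial list, passed the filter. Of the fibroblast markers, COL1A2, DCN and LUM were on 0 arrays, COL3A1 was on too few to pass the filter, and COL1A1 was on all 12. With the mimic COL1A1 differed by -1.09 without a call (limma adjusted p = 0.112), and with LNA-miR-197 it was called lower, at -1.04 (limma adjusted p = 0.0431), and its part in the results below was not tested.

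The first question was whether the miRNA changed the junction genes. After pre-miR-197, none (0) of the 13 probes passed an adjusted p of 0.05 in limma, where 0.086% of the 33714 probes tested did. An unadjusted limma p under 0.05 was reached by 5 of the 13, and by 5333 of the 33714. After LNA-miR-197, 1 of the 13 passed, a CTNND1 probe that was lower, where 7.99% of all probes did in either direction and 3.96% were called lower. The median log2 difference of the 13 probes was -0.23 with the mimic and -0.37 with the inhibitor, beside 0.02 and -0.01 over all probes tested. The mimic and the inhibitor of the same miRNA thus had medians on the same side of 0 in this set.

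CTNND1 encodes p120 catenin. For probe A_23_P251316 the log2 levels in A549 were 1.02 with NC, 0.26 with pre-miR-197, 0.98 with LNA-NC and 0.36 with LNA-miR-197. In PC14 they were 0.41, -0.28, 0.47 and -0.32 in the same order, and in PC14CDDP 0.03, -1.24, 0.09 and -1.17. In each line both miR-197 arrays lay below both control arrays, and the controls differed from each other by at most 0.06. The log2 difference was -0.91 ± 0.32 (SD, n = 3 lines) after pre-miR-197, with a limma adjusted p of 0.0721 that missed the threshold. It was -0.89 ± 0.33 (SD, n = 3) after LNA-miR-197, which is a 1.85-fold lower level and passed it with a limma adjusted p of 0.0221. The effects of mimic and inhibitor differed by -0.02 (95% confidence interval -0.52 to 0.47) for this probe.

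The call after LNA-miR-197 was lost when A549, PC14 or PC14CDDP was left out, with limma adjusted p of 0.0852, 0.189 and 0.188, and also under a fit to the arrays of the comparison alone. In each of these settings 0 of 33714 probes were called, so that all 2694 calls of this comparison were lost with it. Its log2 difference stayed between -1.02 and -0.71. With NC in place of LNA-NC it remained. That alternative and its counterpart for pre-miR-197 were chosen after seeing the data.

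For the other CTNND1 probe, A_33_P3209716, the log2 levels in A549 were -2.54 with NC, -3.31 with pre-miR-197, -2.66 with LNA-NC and -2.41 with LNA-miR-197. In PC14 they were -2.38, -2.72, -2.46 and -2.22, and in PC14CDDP -2.91, -3.34, -2.98 and -2.76. In every line the pre-miR-197 array was the lowest and the LNA-miR-197 array the highest. The log2 difference was -0.51 ± 0.23 (SD, n = 3) after pre-miR-197 with a limma adjusted p of 0.0982, and 0.24 ± 0.02 (SD, n = 3) after LNA-miR-197 with a limma adjusted p of 0.197. Their difference was -0.75 (95% confidence interval -1.09 to -0.40) with a limma adjusted p of 0.0863, so none of these passed the threshold. Over all probes, 0.0504% passed in that comparison.

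The pair of CTNND1 probes was therefore compared within the same arrays. After pre-miR-197 the log2 difference of A_23_P251316 was lower than that of A_33_P3209716 by -0.40 ± 0.43 (SD, n = 3), a gap within its own spread and of 0.01 in A549. After LNA-miR-197 the gap averaged -1.12 ± 0.31 (SD, n = 3), with PC14CDDP at -1.47, PC14 at -1.03 and A549 at -0.87. The LNA-miR-197 gap had the same sign in all 3 lines. An exact two-sided sign-flip test over 3 lines cannot give a p under 0.25, and none is given.

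**Figure D1:**
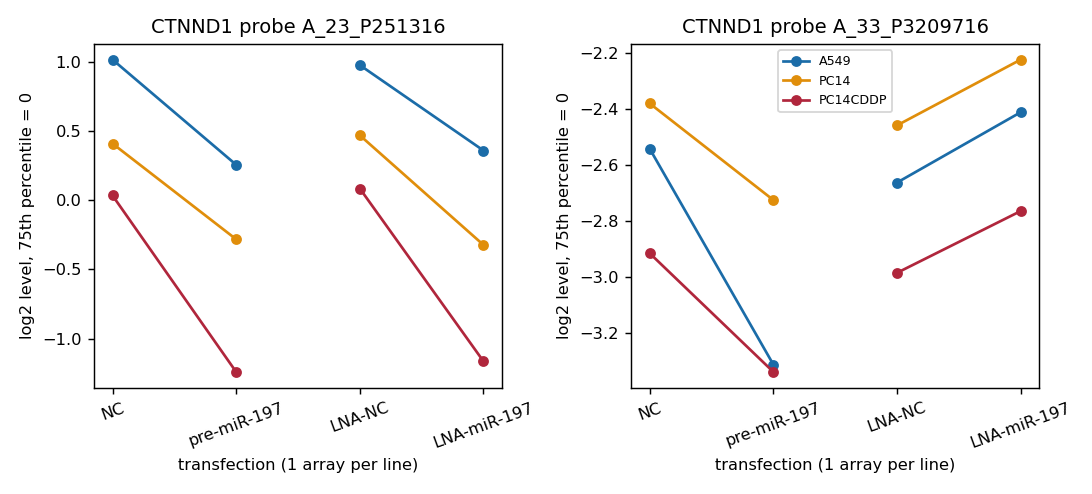
Log2 levels of the CTNND1 probes by transfection, with 1 array per point and a line joining each control to its miR-197 array in the same cell line; the vertical axes have different ranges. Probe A_23_P251316 is lower after both oligonucleotides in all 3 lines, whereas A_33_P3209716 is lower after pre-miR-197 and higher by 0.22 to 0.25 after LNA-miR-197.

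Among the cadherins, CDH1 in A549 was 0.98 with NC, 0.08 with pre-miR-197, 0.62 with LNA-NC and 0.18 with LNA-miR-197. Its probe is spotted 10 times on the array and the SD between these spots, a technical error that leaves out the spread between cultures, was 0.07 to 0.09 in A549. In PC14 it was -4.82 and -5.15 with NC and LNA-NC, where it was well above background, and -6.06 and -6.25 with pre-miR-197 and LNA-miR-197, where it was not. In PC14CDDP it was not well above background on any of the 4 arrays. Over the lines the log2 difference was -0.70 ± 0.67 (SD, n = 3) after pre-miR-197 with a limma adjusted p of 0.315, and -0.37 ± 0.77 (SD, n = 3) after LNA-miR-197 with a limma adjusted p of 0.471.

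N-cadherin gave other values. Its probe A_23_P38732 differed by 0.21 ± 0.21 (SD, n = 3) after pre-miR-197 and by -0.38 ± 0.06 (SD, n = 3) after LNA-miR-197, with limma adjusted p of 0.56 and 0.157. The second CDH2 probe differed by 0.10 ± 0.29 and -0.29 ± 0.17 (SD, n = 3). P-cadherin, CDH3, is a cadherin of basal epithelial cells; its differences of -0.23 ± 0.18 and -0.50 ± 0.48 (SD, n = 3) were close in size to their own spread. Its LNA-miR-197 array of PC14CDDP, at -6.65, was not well above background.

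Alpha-catenin, CTNNA1, links the cadherin complex to actin. Probe A_23_P58647 read 3.97 with NC, 3.36 with pre-miR-197, 3.64 with LNA-NC and 3.41 with LNA-miR-197 in A549, then 3.51, 3.22, 3.45 and 3.14 in PC14, and 2.68, 2.41, 2.62 and 2.02 in PC14CDDP. Both miR-197 arrays lay below both controls in every line. The differences were -0.39 ± 0.19 (SD, n = 3) with the mimic and -0.38 ± 0.19 (SD, n = 3) with the inhibitor, with limma adjusted p of 0.17 and 0.0738. The second CTNNA1 probe had the same sign in all 3 lines in both comparisons but smaller differences, of -0.12 ± 0.05 and -0.11 ± 0.08 (SD, n = 3).

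Plakoglobin, JUP, takes the place of beta-catenin on cadherin tails and is shared with the desmosome. Its levels in PC14CDDP were -1.83 with NC, -2.80 with pre-miR-197, -1.39 with LNA-NC and -2.55 with LNA-miR-197. In PC14 they were -0.63, -0.97, -0.51 and -1.24, and in A549 2.85, 2.32, 3.22 and 3.07. Both miR-197 arrays lay below both controls in PC14 and PC14CDDP, whereas the LNA-miR-197 array of A549 lay above its NC array. The differences were -0.61 ± 0.32 and -0.68 ± 0.51 (SD, n = 3), with limma adjusted p of 0.256 and 0.105.

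PKP3, a plakophilin of simple and stratified epithelia, differed by -0.36 ± 0.22 and -0.44 ± 0.40 (SD, n = 3), in each comparison least in A549 and most in PC14CDDP. PKP2 differed by -0.06 ± 0.08 after pre-miR-197 and by -0.04 ± 0.59 after LNA-miR-197 (SD, n = 3), with A549 at 0.63 and PC14 at -0.48 after LNA-miR-197. Beta-catenin, CTNNB1, also acts in WNT signaling. Its probe with 10 spots differed by -0.11 ± 0.05 and 0.12 ± 0.08 (SD, n = 3), and the other by 0.04 ± 0.11 and 0.22 ± 0.12 (SD, n = 3), none of which passed the threshold.

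Counted over the 13 probes, 8 were lower in all 3 lines after pre-miR-197, where 19.6% of all tested probes were, and 8 after LNA-miR-197, where 24.3% were. 6 probes were lower in all 3 lines after both, beside 6.5% of all probes, namely CTNND1 A_23_P251316, both CTNNA1 probes, CDH3, JUP and PKP3. The members were chosen with earlier results of these data known, CTNND1 was selected by the study on these arrays, and CTNNA1 counts with both probes. These counts are therefore descriptions. 2 probes were lower in all 3 lines after pre-miR-197 and higher in all 3 after LNA-miR-197, beside 3.41% of all probes: CTNND1 A_33_P3209716 and CTNNB1 A_23_P29495. These comparisons have separate control arrays. For CTNNB1 A_23_P29495 the differences were -0.11 and 0.12, LNA-NC against NC was -0.13, and both signs turned with the control exchanged. Between the controls, LNA-NC against NC, 0 of 13 member probes passed, 0 had an unadjusted p under 0.05, and 0.46% of all probes were called. Of all 33714 probes, 4495 had an unadjusted p under 0.05 there.

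Genes whose deviations from their line mean were most like those of CTNND1 A_23_P251316 over the 12 arrays were TOM1L2 (Pearson r = 0.98), GOLGA2P7 (0.98), ZER1 (0.98), LOC153577 (0.97) and EPHX2 (0.97), out of 18590 genes well above background on every array. Of the other member probes, JUP (r = 0.87), both CTNNA1 probes (0.84 and 0.86) and PKP3 (0.80) came closest, whereas the second CTNND1 probe had r = 0.28. These correlations are descriptions over 12 arrays that share 3 lines and the slide columns.

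The second question was how the lines differ. Here each line has 4 arrays, 1 per transfection, which are cultures of the same line, so that p-values measure only the spread between these cultures. PC14CDDP and PC14 lay on the same slide, PC14 in slide row 1 and PC14CDDP in slide row 2, so row and line cannot be told apart. PC14CDDP had more N-cadherin and less plakoglobin, plakophilin 3, alpha-catenin and p120 catenin mRNA than PC14. E-cadherin mRNA also read lower, but it was at background in PC14CDDP and its call was lost with normexp background correction. By limma 10 of 13 probes, of 7 genes, were called, 7 lower and 3 higher, where 48.8% of all probes were, 23.3% lower and 25.5% higher. The arrays of these lines did not overlap for 9 of the 13 probes, beside 36.1% of all probes.

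Between PC14CDDP and PC14, CDH2 showed the largest member difference. Probe A_23_P38732 lay between -5.53 and -4.97 in PC14, between -0.54 and -0.14 in PC14CDDP and between -0.74 and -0.07 in A549. PC14CDDP was thus higher than PC14 by 4.94 on the log2 scale, a 30.7-fold difference (limma SE 0.13, adjusted p = 1.53e-07). The other CDH2 probe gave 4.33, or 20.1-fold (limma SE 0.15, adjusted p = 4.93e-07). With normexp background correction the log2 differences were 2.84 and 3.38, and both were called. Between A549 and PC14CDDP, the first probe differed by 0.01 (95% confidence interval -0.30 to 0.32) and the second by 0.63 (limma SE 0.15, adjusted p = 0.00594), where 70.1% of all probes were called, so the pair does not settle their order.

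CDH1 had the order A549, PC14, PC14CDDP. It was 0.47 ± 0.42 (SD, n = 4) in A549 and -5.57 ± 0.70 (SD, n = 4) in PC14, where 2 of 4 arrays measured it, a 65.6-fold difference (limma adjusted p = 3.5e-07). In PC14CDDP it was at -7.88 ± 0.20 (SD, n = 4), not well above background on any array, so at most a bound can be given there. A549 was at least 79.9-fold higher than PC14CDDP (limma adjusted p = 5.23e-08). That bound takes for each PC14CDDP array the dimmest probe still well above background, or the CDH1 signal where that was higher. PC14 was called higher than PC14CDDP (limma adjusted p = 0.000184). No bound is given for it, since 2 of the 4 PC14 arrays were not well above background either. These p-values were computed on the measured signals, those not well above background included. CDH1 passed the filter only through A549, where it is high, so its calls in the A549 comparisons are no evidence about the members as a set. With normexp background correction, which adds an offset of 50 units to every signal, the log2 differences of A549 were 3.73 over PC14 instead of 6.04 and 4.01 over PC14CDDP instead of 8.35, and both were called. PC14CDDP against PC14 was then -0.27 instead of -2.32 and was not called (limma adjusted p = 0.0852). In cell populations, fewer cells with a transcript and less transcript per cell cannot be told apart.

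PC14 was thus the lowest line for CDH2, A549 the highest for CDH1, and PC14CDDP near A549 for CDH2 with CDH1 at background. CDH3 was -4.29 ± 0.24 in A549, then -4.97 ± 0.41 in PC14 and -5.60 ± 0.74 in PC14CDDP (SD, n = 4). For CDH3, A549 differed from PC14CDDP by 1.31 (limma adjusted p = 0.0092, and 0.0532 without the LNA-NC arrays), and the neighbors in that order did not pass the threshold (limma adjusted p = 0.114 and 0.174).

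JUP had the same order as CDH1. It was 2.87 ± 0.39 in A549, against -0.84 ± 0.33 for PC14 and -2.14 ± 0.65 for PC14CDDP (SD, n = 4), and no arrays of different lines overlapped. PC14CDDP was 2.47-fold below PC14 (limma adjusted p = 0.000878) and A549 13.03-fold above PC14 (limma adjusted p = 1.13e-06). Over the 12 arrays the Pearson r of JUP with CDH1 was 0.98, mostly a contrast between lines. The 5 genes with the highest r to CDH1 were ARSD, SEL1L, DHTKD1, XLOC_009509 and PDE8B, with r of 0.993 to 0.995.

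PKP3 was 3.36 ± 0.32 in A549, near the 3.20 ± 0.19 of PC14, and 1.66 ± 0.43 for PC14CDDP (SD, n = 4), so that PC14CDDP was 2.92-fold below PC14 (limma adjusted p = 0.00018). A549 and PC14 differed by 0.16 (95% confidence interval -0.24 to 0.56). PKP2, the plakophilin found widely in epithelia and in heart, showed another order. It was -1.34 ± 0.26 in A549, and -0.39 ± 0.23 and -0.38 ± 0.25 in PC14 and PC14CDDP (SD, n = 4), lower in A549 than in PC14 by 1.94-fold (limma adjusted p = 0.00117) and not called between PC14CDDP and PC14 (difference 0.01, 95% confidence interval -0.38 to 0.40).

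The catenin probes gave smaller differences. CTNND1 A_23_P251316 was 0.65 ± 0.40 for A549, 0.07 ± 0.43 for PC14 and -0.57 ± 0.73 for PC14CDDP (SD, n = 4). The 4 arrays of PC14 and PC14CDDP overlapped, but within each transfection PC14CDDP was lower, and the difference of -0.64 passed the threshold (limma SE 0.13, adjusted p = 0.00407). The other CTNND1 probe gave -0.55 for the same comparison (limma SE 0.09, adjusted p = 0.0014). Between A549 and PC14 the CTNND1 probes went opposite ways, 0.58 and -0.29 (limma adjusted p = 0.0042 and 0.0236). The second of these calls was lost without the pre-miR-197, NC or LNA-NC arrays, with limma adjusted p of 0.107, 0.0609 and 0.065. It was also lost with normexp (log2 difference -0.07, limma adjusted p = 0.38), with only the arrays of the comparison, without transfection as a replicate block and with the methods' t-test.

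CTNNA1 showed the same feature. Both of its probes were lower in PC14CDDP than in PC14, by 1.87-fold and 1.38-fold (limma adjusted p = 0.000145 and 0.00082). Against PC14, A549 was higher by 0.27 on A_23_P58647 (limma adjusted p = 0.0389) and lower on A_33_P3403418, at -0.77 (limma adjusted p = 2.31e-05). For CTNNB1 the probes ran the same way between A549 and PC14, at -0.22 and -0.65 (limma adjusted p = 0.0353 and 0.00011). Between PC14CDDP and PC14 its 10-spot probe differed by 0.04 (95% confidence interval -0.13 to 0.22), and the other by 0.24 (limma adjusted p = 0.0336), a call lost without scaling between arrays (limma adjusted p = 0.275) and without the arrays of any of the 4 transfections (0.0529 to 0.122). The A549 against PC14 calls of CTNNA1 A_23_P58647 and CTNNB1 A_23_P29495 were likewise lost whichever transfection was left out, with limma adjusted p of 0.0575 to 0.207 and 0.0509 to 0.158. For A549 against PC14, where slide and line cannot be told apart, 11 of 13 probes were called, beside 67.4% of all probes, and 9 did not overlap between lines, beside 57.9%. For A549 against PC14CDDP 12 were called, beside 70.1% of all probes, and 10 did not overlap, beside 55.6% of all probes. The counts of both A549 comparisons include CDH1, which passed the filter only through A549. Against PC14CDDP the calls of CTNND1 A_33_P3209716 and CTNNB1 A_23_P29495 were lost in 10 and 5 of 13 alternative settings. The CTNNA1 probes were called in opposite directions there, at 1.17 for A_23_P58647 and -0.30 for A_33_P3403418.

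Other junction genes, from lists drawn up with earlier results of these data known and with 1 probe per gene, were set beside the members. For PC14CDDP against PC14, 44 of the 72 genes tested were called, 61.1%, beside 48.8% of all probes. Of all probes, 23.3% were called lower and 25.5% higher, and each count of that comparison below stands beside these shares. Of 6 transcription factors known to repress E-cadherin, 4 were higher and 0 lower in PC14CDDP than in PC14, with a median of 1.04 beside 0.04 over all probes. ZEB2 was at least 15.7-fold higher, since it was not well above background on any PC14 array. TWIST1 was 3.15-fold and SNAI1 2.37-fold higher (limma adjusted p = 9.45e-05 and 0.000468). In A549 against PC14CDDP all 6 repressors were lower, with a median of -1.12, where 35.0% of all probes were called lower. In A549 against PC14, where CDH1 was also higher, 2 repressors were higher and 2 lower, with a median of 0.31. Of all probes 34.3% were called higher and 33.1% lower there. ZEB2 was at least 4.69-fold higher in A549 than in PC14. Neither pre-miR-197 nor LNA-miR-197 changed any of the 6 past the threshold (0 calls).

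Repressors of this kind bind E-box sequences, CACCTG or CAGGTG, which are the same site read on opposite strands. RefSeq promoters of GRCh38.p14, from 250 bases before to 50 after a gene start, were given for CTNNB1, CTNNA1, JUP and CDH2, 9 in all. E-boxes were found in 1 of them, a JUP promoter at chr17:41785927-41786226, whereas 20.6% of 35116 promoters hold one. The promoters of the other members, CDH1 among them, were not analysed here. The stretch is shown because it lies in the 1 promoter of those 9 that held E-boxes, which are in capitals.
JUP, chr17:41786007-41786036, minus strand: tggcccCACCTGccgagCAGGTGagcgcac
Whether the site is bound was not tested.

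Desmosome genes had 8 of 11 probes tested, of which 5 were lower and 0 higher in PC14CDDP than in PC14, with a median of -0.82. Of all probes 23.3% were called lower and 25.5% higher. DSP, which encodes desmoplakin, went from 3.94 ± 0.09 in PC14 to 0.11 ± 0.13 in PC14CDDP (SD, n = 4), 14.2-fold lower (limma adjusted p = 2.18e-07). PPL, encoding periplakin, was 10.9-fold and EVPL, encoding envoplakin, 2.18-fold lower. Of the 9 tight junction genes reported here 3 were lower and 0 higher, beside the same shares of all probes. The claudin genes CLDN4 and CLDN3 were 719-fold and 72.5-fold lower (limma adjusted p = 1.58e-07 and 1.87e-07), and OCLN, encoding occludin, was 1.73-fold lower.

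Of 16 adherens junction partners and nectins, 8 were lower and 5 higher in PC14CDDP, beside 23.3% and 25.5% of all probes, with a median of -0.22. SHROOM3, an organizer of apical actin, and PTPRM, a receptor phosphatase that binds cadherins, were at least 11.8-fold and at least 5.22-fold lower. PLEKHA7, which binds p120 catenin at the junction, was 3.48-fold lower (limma adjusted p = 0.0018), with 1 of 4 PC14CDDP arrays well above background. NECTIN3 was 15.5-fold higher (limma adjusted p = 2.24e-07), and ACTN1 was 1.75-fold higher. NECTIN4 was at least 2.31-fold higher.

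Among 17 interactors of p120 catenin and genes of cadherin turnover, 9 were higher and 1 lower, beside 25.5% and 23.3% of all probes. CBLL1, encoding the ubiquitin ligase Hakai that acts on E-cadherin, was 2.17-fold higher, PTPN1 was 1.93-fold and the kinase gene FER 1.85-fold higher, and ARHGAP35, encoding p190RhoGAP, was 2.14-fold lower (limma adjusted p = 0.000208, 0.000105, 0.000247 and 0.00144). Of 19 other cadherins 10 were tested, with 3 higher and 1 lower, beside the same shares of all probes. CDH15 was 6.62-fold lower, CDH24 1.37-fold and CDH5 1.26-fold higher, and CDH19 was called higher although it was not well above background in either line. Of 9 other catenins and plakophilins 6 were tested, 3 higher and 2 lower, again beside the same shares. CTNNAL1 was 1.84-fold and CTNNBL1 1.42-fold higher, and CTNNBIP1 and ARVCF were 1.99-fold and 1.70-fold lower. CTNND2, another member of the p120 family, was called higher (limma adjusted p = 0.00972). It passed the filter only through 3 PC14CDDP arrays, and all other arrays were not well above background, so no fold is given.

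In A549 against PC14 34.3% of all probes were called higher and 33.1% lower, and against PC14CDDP 35.2% and 35.0%. Against PC14, A549 had 12 of 16 adherens junction partners and nectins higher and 4 lower, 7 of 10 other cadherins higher and 1 lower, and 4 of these 9 tight junction genes higher and 5 lower. CDH10, CDH16, CDH17 and CDH19 were well above background on 4 arrays, all of A549, and CDH4 on 4 A549 arrays and 1 PC14CDDP array. These genes and CLDN1 passed the filter only through A549, so their calls as higher are no evidence about their lists. CLDN1 was at least 223-fold and CDH4 at least 51.2-fold higher in A549, since PC14 had neither well above background. Against PC14CDDP, A549 had 6 of 8 desmosome genes higher and 0 lower, and PTPRM at least 115-fold higher. Of these desmosome genes DSC3 passed the filter only through A549. These A549 comparisons share their slide limit.

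After pre-miR-197 none (0) of the genes on these 7 lists was called, and 0 were called for LNA-NC against NC. After LNA-miR-197 6 of the 72 tested genes were called, 8.33%, close to the 7.99% of all probes. AJUBA, NECTIN1, CBLL1 and ADAM10 rose by 1.63, 0.80, 0.86 and 0.62 on the log2 scale (limma adjusted p = 0.0208, 0.0397, 0.0226 and 0.0444). CDH26 fell by 1.79 and PTPRF fell by 0.53 (limma adjusted p = 0.0371 and 0.0448). With any 1 line left out 0 of 33714 probes were called in limma, so these calls were lost too. AJUBA encodes a LIM protein that binds alpha-catenin, and ADAM10 encodes a protease that cleaves E-cadherin. Their pre-miR-197 differences were 0.28 for AJUBA, 0.11 for CBLL1 and -0.14 for ADAM10, and whether the effects of the oligonucleotides differ was called for 0 of the genes on these lists.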

How the data were processed

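RNA from 12 transfected cultures, 100 ng each, was hybridized to one-dye Agilent 60-mer arrays. According to the submitters' processing notes the authors used Agilent Feature Extraction 10.7.3.1. The authors deposited spot intensity values (pixel mean, local background and a processed signal that is background-subtracted and not scaled between arrays) with flags, and a table of intensity values equal to the processed signal on all 12 arrays. No array normalization is given in the sources used here. 0 columns belonged to other samples.

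Control spots and outlier spots were left out, repeated spots averaged, and log2 signal taken minus that of the array's 75th percentile over non-control spots (613 to 719 units). Of 50599 probes, 106 with a missing value were left out, and 33714 were well above background on at least 3 arrays and were tested. All 12 arrays entered one limma 3.58.1 fit (R 4.3.3) with transfection and line as terms, with Benjamini-Hochberg adjustment over all probes tested at 0.05. Deviations of arrays of the same line from the transfection means correlated at r of 0.845 to 0.947, so the line pairs the arrays. The difference between lines in a transfection effect has no replicate and was not tested by limma. The script was tested on simulated arrays. The methods name a t-test, which was an alternative, as were quantile normalization, normexp with an offset of 50, no scaling, other filters, other priors, the slide as a block and each line left out. The members and gene lists were chosen with earlier results of these data known. All member probes are named, with up to 3 list genes per direction for PC14CDDP against PC14 and all list genes called after LNA-miR-197, and the 5 genes most like CTNND1 and CDH1. List genes are the brightest probe of the gene. Leukocyte and endothelial markers were also looked up: PTPRC, CDH5 and VWF were well above background on all 12 arrays, CD3E on 7 and PECAM1 on 5, and LYZ found no probe. Of the lists, 1 tight junction gene and 1 leukocyte marker are not reported here, and counts leave them out. Python 3.11.15, numpy 2.4.6, pandas 2.3.3 and matplotlib 3.10.9 were used.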

Additional observations from a re-analysis of the deposited data

Results flagged for a closer look

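In 5 cases a probe moved by at least 1.2-fold up in 1 line and at least 1.2-fold down in another under the same comparison; the difference between the lines was not tested, since each line has 1 array per transfection. CDH1 after LNA-miR-197 differed by -0.44 in A549, -1.10 in PC14 and 0.43 in the PC14CDDP line, a range of 1.53 on the log2 scale, with all PC14CDDP arrays not well above background. PKP2 after LNA-miR-197 differed by 0.63 in A549, by -0.48 in PC14 and by -0.26 for PC14CDDP, a range of 1.11, on arrays that were all well above background. For LNA-NC against NC, CDH2 differed by -0.27 in A549 and 0.56 in PC14 on A_23_P38732, a range of 0.82, and by -0.40 and 0.41 on A_33_P3214159, a range of 0.81. In the same comparison CDH3 differed by 0.51 in PC14 and -0.60 in PC14CDDP, a range of 1.11. No array stood apart from the other 3 of its line by Dixon's test in 39 groups of 4 arrays.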

How the results depend on the processing

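With the arrays limited to 1 per transfection and line, dim probes and small differences set the limits. For pre-miR-197 against NC, where 0 of 13 probes were called, 1 was called with normexp background correction, 1 with a trend and robust prior, 1 with LNA-NC as the control (an alternative chosen after seeing the data) and 2 with a filter on all 12 arrays; these were CTNND1 A_23_P251316 (limma adjusted p from 0.0133 to 1.00 over its settings) and, with the filter, A_33_P3209716. For LNA-miR-197 against LNA-NC, where 1 was called, 2 were called with normexp, with the filter on all 12 arrays, with the trend and robust prior and with NC as the control, the second being CTNNA1 A_23_P58647. There 0 were called with only the arrays of the comparison, without the line as a replicate block, with slide as a block or with the methods' t-test. These counts follow those over all probes: 0, 3, 5 and 0 of 33714 were called in these last settings, against 4297 of 24609 with the filter on all 12 arrays. The methods' t-test was run here unpaired, so it ignored the pairing by line and left the differences between lines in its error. It called 0 of 13 probes at an unadjusted p under 0.05 as well. Of all 33714 probes, 557 passed that level for pre-miR-197 against NC and 1055 for LNA-miR-197 against LNA-NC. For the difference of effects 1 was called with the filter on all 12 arrays, CTNND1 A_33_P3209716 (limma adjusted p = 0.0358), beside 3.05% of all probes. For A549 against PC14, 7 were called without the replicate block instead of 11, beside 58.8% of all probes instead of 67.4%.

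Leaving out a line gave 0 to 0 calls in each transfection comparison, where in limma 0 of 33714 probes were called for pre-miR-197 and for LNA-miR-197, with 2277 to 5422 and 5238 to 9403 at an unadjusted p under 0.05, so this says nothing of the members in particular. Leaving out a transfection gave 9 to 9 calls for PC14CDDP against PC14, 8 to 9 for A549 against PC14 and 10 to 11 for A549 against PC14CDDP. Of all probes 38.2% to 45.0%, 59.1% to 64.3% and 63.2% to 67.0% were called in these comparisons. Without the replicate block PC14CDDP against PC14 had 8 calls, beside 38.1% of all probes, and A549 against PC14CDDP 11, beside 62.3%. In that setting CTNND1 A_23_P251316 was not called for PC14CDDP against PC14. CDH1 in that comparison was not called with normexp, at -0.27.

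Signs turned only for values near 0. CDH2 A_33_P3214159 after pre-miR-197 ran from -0.047 without PC14 to 0.24 without A549, and CTNNB1 A_33_P3421695 from -0.010 without PC14CDDP to 0.10 without A549. CTNNB1 A_23_P29495 turned with the exchanged control, to 0.021 for the mimic and -0.012 for the inhibitor. PKP2 for the mimic was 0.035 without scaling and 0.17 with LNA-NC as the control, and for the inhibitor ran from -0.37 without A549 to 0.18 without PC14, with 0.076 without PC14CDDP. The difference of effects of CTNND1 A_23_P251316 was 0.099 without scaling and ran from -0.085 without PC14 to 0.037 without A549. Without scaling between arrays the median of all probes was 0.12 after pre-miR-197. The cause of these changes was not tested.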
